A study of Mus musculus with 16 samples.

Results

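Macrophages are resident immune cells of the dorsal root ganglion, where they lie close to the cell bodies of sensory neurons and clear debris and damaged cells. They depend on signalling through the CSF1 receptor, respond to fractalkine through Cx3cr1, and are a main source of C1q, the protein that starts the classical complement cascade and tags material for uptake. The genes described here are 10 markers of these cells, taken by name from the count tables: Aif1, C1qa, C1qb, C1qc, Csf1r, Cx3cr1, Fcrls, Cd68, Mrc1 and Cd163. They were chosen with earlier results of these data known, so they are not an independent set. All 10 were found among the 22609 genes of each table, and all 10 were among the 14200 genes abundant enough to be tested.

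RNA was sequenced from cells of L3 to L5 dorsal root ganglia. The mice were males and 8 to 16 weeks old. Paclitaxel (PTX), a microtubule-stabilising chemotherapy drug, was given intraperitoneally at 6 mg per kg in 3 injections spaced by 2 days. The neurons were traced with the fluorescent lectin WGA-488, placed in the paw at 16 days after the last injection, and tracer-positive cells were sorted at 18 days from dissociated ganglia of both sides. The sort was aimed at neurons, so none of the 10 genes marks the intended cells. Ltbr, which encodes the lymphotoxin-beta receptor, was floxed in all mice, controls included. The 4 groups held 4 libraries each: PTX with Nav1.8/LTbR CKO, PTX with LTbR-fl/fl, vehicle with Nav1.8/LTbR CKO, and vehicle with LTbR-fl/fl. In CKO mice a Cre recombinase is driven from Nav1.8, a sodium channel gene of nociceptors, so the deletion is aimed at neurons and not at macrophages. The vehicle libraries are those with the treatment label Water and no PTX in the title, although the treatment text attached to them describes PTX. The design text gives 3 per group where the labels give 4, and nothing says that the libraries came from separate animals, so p-values measure the spread between libraries, which may be technical. Titles carry dates whose meaning is not given. Replicates 1 and 2 of every group have the earlier date (9/24 after PTX, 10/1 after vehicle) and replicates 3 and 4 the later one (9/25 after PTX, 10/2 after vehicle). Title date and treatment therefore cannot be told apart, whereas genotype is balanced over dates.

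Libraries held 7906504 to 11668007 gene counts. CPM, the unit of all levels here, is a gene's count relative to the size of its library after scaling by the trimmed mean of M-values. Values stand in replicate order 1 to 4 wherever 4 values of a group follow each other. Ltbr, the deleted gene, showed no loss under the CKO label. It stood at 5.88 to 28.4 CPM in PTX CKO and 6.06 to 15.6 CPM in PTX fl/fl libraries, and at 32.3 to 99 CPM in vehicle CKO and 42.4 to 51.4 CPM in vehicle fl/fl libraries. Its log2 fold change of CKO over fl/fl was 0.86 ± 0.51 (SE) under PTX and 0.21 ± 0.50 under vehicle, each with an edgeR adjusted p of 1. Counts were per whole gene, so a loss of single exons could go unseen, and genotypes are named by label. Sensory neuron markers were at 1.15 to 2.94 percent of gene counts after PTX and 0.13 to 0.889 percent after vehicle, and neutrophil markers at 0.0338 to 12.3 percent after PTX and 7.83 to 19.7 percent after vehicle. The libraries thus held RNA of cells other than neurons.

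Over both genotypes, 8 of the 10 macrophage genes were lower after PTX than after vehicle: Aif1, C1qa, C1qb, C1qc, Csf1r, Cx3cr1, Fcrls and Cd163 (edgeR quasi-likelihood test, two-sided, Benjamini-Hochberg adjusted p under 0.05 over all 14200 genes). Over all genes tested, 6.19 percent passed in this direction. Without the 4 PTX libraries of 9/24 the count was 1 of 10. Calls over all genes in either direction then fell from 2378 to 224. The median log2 fold change of the 10 genes was -3.17, against 0.01 for all genes tested. Summed over the 10 genes, PTX CKO libraries had 36.9, 23.3, 322 and 477 CPM and PTX fl/fl libraries 19.3, 52.9, 310 and 203 CPM, against 3267, 488, 425 and 715 CPM in vehicle CKO and 1520, 1560, 436 and 2733 CPM in vehicle fl/fl libraries. The highest PTX sum lay above the lowest vehicle sum, and the 4 PTX libraries of the later date were all above the 4 of the earlier date. A smaller share of macrophages in the sorted material and less of these RNAs per macrophage cannot be told apart in bulk samples. Marker lists of neutrophils, glia and fibroblasts also had negative medians, whereas that of sensory neurons had a positive one (2.25). Further values are given below, and the part of these cells in the result was not tested.

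**Figure D1:**
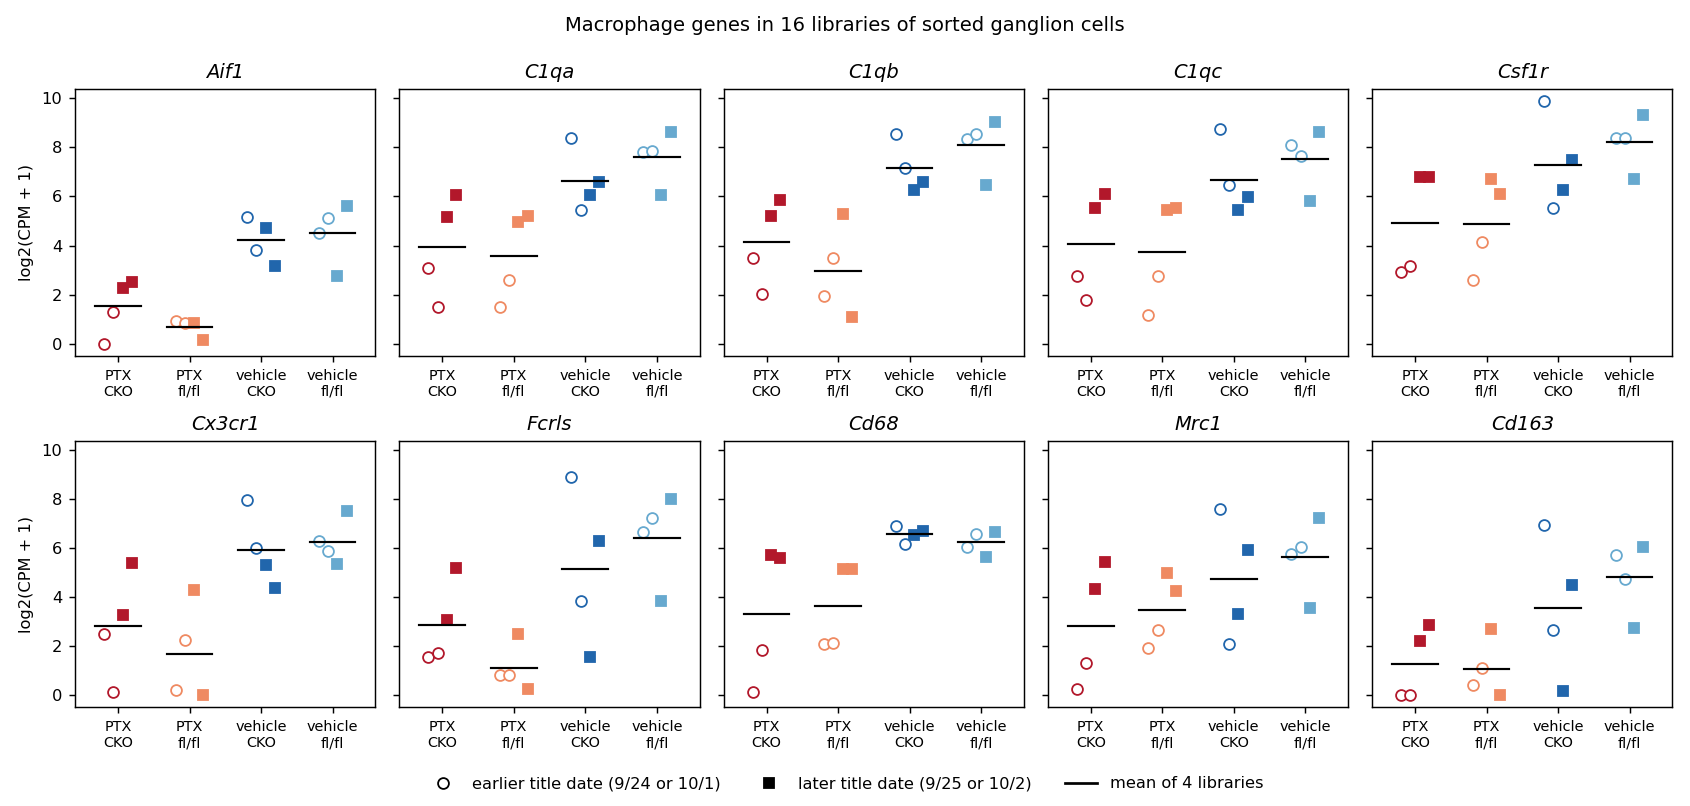
Level of each of the 10 macrophage genes in every library, as log2(CPM + 1), by group. Open circles are the earlier title date (9/24 or 10/1), filled squares the later (9/25 or 10/2), and the line is the mean of 4 libraries. Only Aif1 and C1qb have all 8 PTX libraries below all 8 vehicle libraries, and for C1qa, C1qc, Csf1r, Cd68 and Mrc1 the later PTX libraries lie above the earlier ones.

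C1qa, C1qb and C1qc encode the A, B and C chains of C1q. They lie next to each other on chromosome 4, in the order C1qb, C1qc, C1qa with no other gene between them in the RefSeq table. C1qa had 7.38, 1.8, 35.4 and 66.3 CPM in PTX CKO and 1.83, 5.01, 30.6 and 35.6 CPM in PTX fl/fl libraries, against 337, 43, 65.1 and 93.7 CPM in vehicle CKO and 226, 232, 66.5 and 392 CPM in vehicle fl/fl libraries. Within fl/fl the groups did not overlap, whereas within CKO the highest PTX library stood above the 2 lowest vehicle libraries. With both genotypes in the contrast, the log2 fold change was -2.97 ± 0.77 (edgeR adjusted p = 0.0172). C1qb had 10.3, 3.04, 36 and 57.4 CPM in PTX CKO and 2.82, 10.3, 38.2 and 1.12 CPM in PTX fl/fl libraries, against 368, 142, 75.7 and 96.4 CPM in vehicle CKO and 322, 370, 86.7 and 521 CPM in vehicle fl/fl libraries. All 8 PTX libraries were below all 8 vehicle libraries. Over both genotypes the log2 fold change was -3.65 ± 0.76 (edgeR adjusted p = 0.00481). C1qc had 5.81, 2.47, 45.8 and 67.8 CPM in PTX CKO and 1.25, 5.71, 42.3 and 45.7 CPM in PTX fl/fl libraries, against 434, 88.2, 42.8 and 62.4 CPM in vehicle CKO and 270, 198, 54.8 and 397 CPM in vehicle fl/fl libraries. Its groups did not overlap within fl/fl and overlapped within CKO, where the first vehicle library stood far above the rest. Its log2 fold change over both genotypes was -2.82 ± 0.83 (edgeR adjusted p = 0.0321), and 6 of the 16 fits that left out 1 library lost the call. The 2 genes beyond C1qa on that side, which encode no complement protein, did not pass the test, Epha8 with a log2 fold change of 1.47 (edgeR adjusted p = 0.421) and Zbtb40 with -0.41 (0.824).

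PU.1, an ETS transcription factor of myeloid cells, drives many macrophage genes and often binds at GAGGAAGT or its core AGGAAG. The 250 bases before the start are shown for C1qb, C1qc and Cd68 (RefSeq, GRCm38.p6, all minus strand). These stretches were kept for holding little or no sequence of another annotated transcript of the same gene, not for the level of the gene. C1qb and C1qc are neighbouring genes that passed as lower over both genotypes, and Cd68 did not pass. Capitals mark AGGAAG on either strand and its extension GAGGAAGT, which overlap in C1qc.
C1qb, chr4:136886201-136886450: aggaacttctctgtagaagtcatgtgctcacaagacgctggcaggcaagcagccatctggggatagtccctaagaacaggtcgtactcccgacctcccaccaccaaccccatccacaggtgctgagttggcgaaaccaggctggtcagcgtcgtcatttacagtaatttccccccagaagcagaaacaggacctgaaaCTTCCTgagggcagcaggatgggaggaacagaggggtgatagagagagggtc
C1qc, chr4:136892915-136893164: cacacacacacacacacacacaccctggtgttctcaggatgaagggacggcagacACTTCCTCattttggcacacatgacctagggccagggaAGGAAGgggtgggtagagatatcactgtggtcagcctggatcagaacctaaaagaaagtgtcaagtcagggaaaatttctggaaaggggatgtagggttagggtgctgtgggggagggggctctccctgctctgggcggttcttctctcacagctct
Cd68, chr11:69666171-69666420: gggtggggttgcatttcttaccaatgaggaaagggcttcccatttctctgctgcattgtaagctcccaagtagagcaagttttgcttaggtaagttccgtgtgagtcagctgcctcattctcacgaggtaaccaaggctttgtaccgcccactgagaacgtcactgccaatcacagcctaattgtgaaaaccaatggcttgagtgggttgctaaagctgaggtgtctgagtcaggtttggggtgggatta
AGGAAG was found on either strand in 4 of the 8 macrophage gene promoters in the table (Mrc1, Fcrls, C1qb and C1qc) and in 29.5 percent of 32851 promoters of the same length. GAGGAAGT was found in 1 of the 8, C1qc, and in 2.44 percent of all. C1qa and Csf1r were not among these 8, and a match is a description of letters, not a site.

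In 1 library the ratio of the 3 C1q chains lay furthest from the others. Of the summed C1q counts of the other 15 libraries C1qb made up 30 to 51.9 percent (median 41.2), C1qa 15.8 to 37.1 percent and C1qc 21.1 to 39.1 percent. In replicate 4 of PTX fl/fl, C1qb made up 1.36 percent, 11 of 811 counts (95 percent Clopper-Pearson interval 0.679 to 2.41), beside 43.2 percent for C1qa and 55.5 percent for C1qc. That library also had Cx3cr1 and Cd163 at 0 counts while Csf1r was at 68.6 CPM. Within PTX, C1qb therefore had its lowest value on the later date and C1qa and C1qc had theirs on the earlier one. The intervals cover counting error only. Some of the other 15 libraries also differed by more than that. In vehicle CKO, C1qa made up 15.8 percent in replicate 2 (interval 14.4 to 17.3) and 37.1 percent in replicate 4 (35.2 to 39.1).

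**Figure D2:**
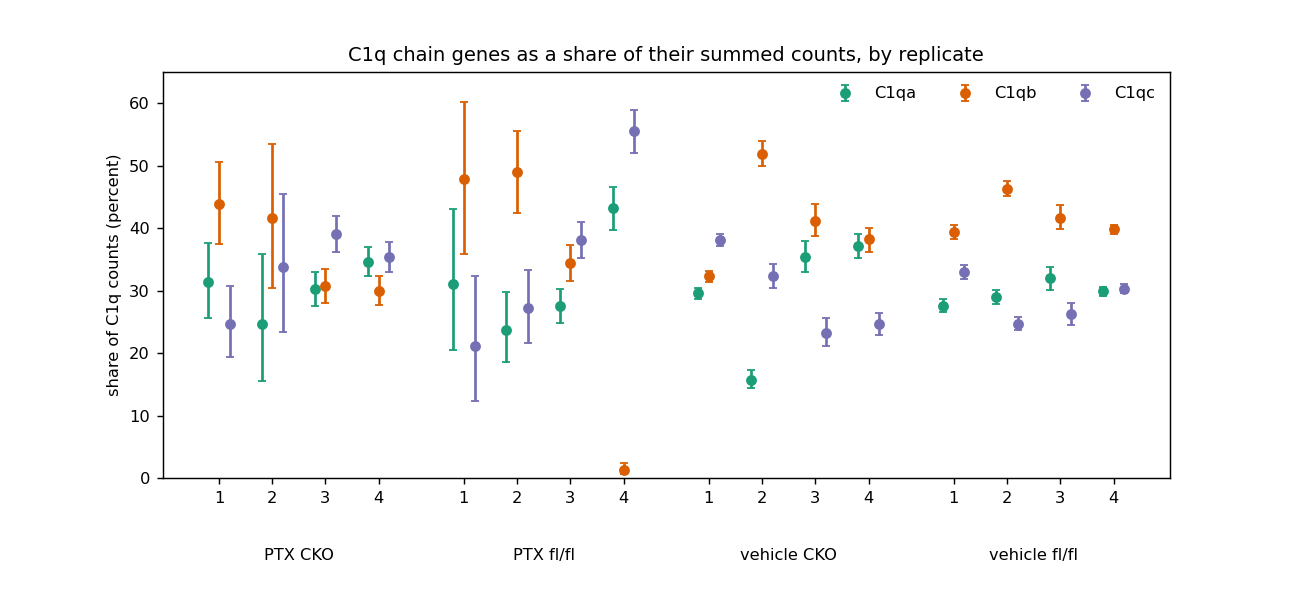
Share of C1qa, C1qb and C1qc in their summed counts (percent) for each library, by group and replicate, with exact 95 percent Clopper-Pearson intervals for counting error. Replicate 4 of PTX fl/fl has C1qb at 1.36 percent, whereas the other 15 libraries lie between 30 and 51.9 percent.

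Csf1r is the receptor of the growth factors CSF1 and IL-34, on which most tissue macrophages depend. It had 6.5, 8.07, 110 and 109 CPM in PTX CKO and 5.07, 16.7, 104 and 68.6 CPM in PTX fl/fl libraries, against 943, 44.9, 75 and 176 CPM in vehicle CKO and 334, 336, 104 and 628 CPM in vehicle fl/fl libraries. The 4 PTX libraries of the earlier date were below all vehicle libraries, and those of the later date overlapped with the lowest vehicle libraries. With both genotypes in the contrast, the log2 fold change was -2.63 ± 0.83 (edgeR adjusted p = 0.0414). The call was lost in 9 of the 16 fits that left out 1 library, with values of -2.74 to -1.8 in those 9, the last without replicate 1 of vehicle CKO, the highest library. Of the genes of its ligands, Csf1 had a log2 fold change of -0.48 ± 0.50 (edgeR adjusted p = 0.54) and Il34 one of -0.76 ± 0.48 (0.284). Csf1 had 16.9, 10.2, 44 and 3.34 CPM in PTX CKO and 8.8, 10.2, 23.4 and 11.5 CPM in PTX fl/fl libraries, against 6.73, 19.3, 21.6 and 27.8 CPM in vehicle CKO and 32, 19.2, 13.9 and 38.9 CPM in vehicle fl/fl libraries, with overlap in both genotypes. Csf1r overlaps Hmgxb3 on the opposite strand, and the strand setting of the counting is not given in the sources used here.

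Cx3cr1 is the receptor of fractalkine, a membrane-bound chemokine made by neurons and encoded by Cx3cl1. It had 4.63, 0.0949, 8.56 and 40.6 CPM in PTX CKO and 0.166, 3.78, 18.7 and 0 CPM in PTX fl/fl libraries, against 250, 63.4, 38.7 and 19.7 CPM in vehicle CKO and 77, 57.6, 39.4 and 178 CPM in vehicle fl/fl libraries. The groups did not overlap within fl/fl, and within CKO 1 PTX library stood above the 2 lowest vehicle libraries. Over both genotypes the log2 fold change was -3.38 ± 1.07 (edgeR adjusted p = 0.0422), and 12 of the 16 fits that left out 1 library lost the call. Cx3cl1 ranged from 6.77 to 33.6 CPM after PTX (median 11.6) and from 0.221 to 44.2 CPM after vehicle (median 19.7), with a log2 fold change of -0.19 ± 0.70 (edgeR adjusted p = 0.882). Its low values lay in vehicle CKO, with 0.673, 0.221, 6.9 and 27.3 CPM. In the annotation a long form of Cx3cr1 spans several other genes, so part of its reads could be assigned ambiguously.

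Aif1 encodes IBA1, a calcium-binding protein of the actin cytoskeleton that is the common histological marker of macrophages and microglia. It had 0, 1.42, 3.82 and 4.77 CPM in PTX CKO and 0.913, 0.791, 0.817 and 0.102 CPM in PTX fl/fl libraries, against 35, 13.2, 25.6 and 7.92 CPM in vehicle CKO and 21.7, 33.5, 5.85 and 47.9 CPM in vehicle fl/fl libraries. All 8 PTX libraries were below all 8 vehicle libraries, and in PTX fl/fl neither library of the later date was above the higher one of the earlier date. Its log2 fold change over both genotypes was -4.18 ± 0.83 (edgeR adjusted p = 0.00307), 18.2-fold lower after PTX. Fcrls encodes an Fc receptor-like molecule found on microglia and on some tissue macrophages of the mouse. It had 1.97, 2.28, 7.32 and 35.6 CPM in PTX CKO and 0.747, 0.791, 4.7 and 0.203 CPM in PTX fl/fl libraries, against 471, 13.3, 1.92 and 76.9 CPM in vehicle CKO and 99.6, 147, 13.3 and 255 CPM in vehicle fl/fl libraries. The groups did not overlap within fl/fl, and within CKO the third vehicle library was below all 4 PTX libraries. With both genotypes in the contrast, the log2 fold change was -4.95 ± 1.11 (edgeR adjusted p = 0.00793), the largest of the 10 genes.

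Cd68, Mrc1 and Cd163 encode proteins of uptake and clearance. Cd68 is a glycoprotein of the lysosomes of phagocytes. It had 0.0985, 2.56, 52 and 48 CPM in PTX CKO and 3.32, 3.43, 33.9 and 34 CPM in PTX fl/fl libraries, against 119, 71.7, 91 and 102 CPM in vehicle CKO and 65.8, 95.4, 49.3 and 101 CPM in vehicle fl/fl libraries. Within each genotype all PTX libraries were below all vehicle libraries, and 1 later PTX library of CKO stood above the lowest vehicle library of fl/fl. The log2 fold change over both genotypes was -1.98 ± 0.77 and did not pass the test (edgeR adjusted p = 0.091). In replicate 1 of PTX CKO Cd68 had 1 count beside 59 counts of C1qc, a ratio of 0.0169, whereas in replicate 1 of PTX fl/fl the ratio was 2.67.

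Mrc1 encodes the mannose receptor CD206, a marker of resident and perivascular macrophages. It had 0.197, 1.52, 19.2 and 41.9 CPM in PTX CKO and 2.82, 5.27, 31 and 18.1 CPM in PTX fl/fl libraries, against 189, 3.32, 8.82 and 59.4 CPM in vehicle CKO and 52.9, 64.5, 10.6 and 148 CPM in vehicle fl/fl libraries. The groups overlapped in both genotypes, and Mrc1 did not pass the test (log2 fold change -2.16 ± 0.96, edgeR adjusted p = 0.132). Mrc1 holds the microRNA gene Mir511 within it on the same strand. Cd163 encodes the scavenger receptor for haemoglobin bound to haptoglobin. It had 0, 0, 3.61 and 6.2 CPM in PTX CKO and 0.332, 1.14, 5.51 and 0 CPM in PTX fl/fl libraries, against 120, 5.42, 0.128 and 21.4 CPM in vehicle CKO and 51.1, 25.9, 5.77 and 64.2 CPM in vehicle fl/fl libraries. The groups did not overlap within fl/fl and overlapped within CKO, where the third vehicle library was near 0. Over both genotypes the log2 fold change was -4.15 ± 1.29 (edgeR adjusted p = 0.0367), a call that 9 of the 16 fits without 1 library lost. The haptoglobin gene Hp did not pass the test (log2 fold change -1.47 ± 0.91, edgeR adjusted p = 0.286).

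Within each genotype the fold changes were negative for all 10 genes, and fewer passed the test. In CKO the log2 fold changes ran from -3.91 ± 1.8 for Cd163 to -1.90 ± 1.09 for Cd68, with a median of -2.54 against 0.02 for all genes. None of the 10 passed the edgeR test there (0.359 percent of all genes passed as lower), 5 had an unadjusted p under 0.05 (19.7 percent of all genes had), DESeq2 called 3 and limma-voom 4. In fl/fl Aif1 (-5.35 ± 1.25, edgeR adjusted p = 0.022), C1qb (-4.63 ± 1.12, 0.0295) and Fcrls (-6.32 ± 1.68, 0.0429) passed, 3 of 10, where 1.76 percent of all genes passed as lower. The median in fl/fl was -3.81 against -0.01 for all genes. PTX libraries were all below vehicle libraries for 3 of the 10 genes in CKO (4.54 percent of all genes), for 8 of the 10 in fl/fl (7.8 percent), and for 2 of the 10 over both genotypes (0.965 percent). The fl/fl calls rested on single libraries: none of the 10 passed without replicate 1 or 2 of PTX fl/fl or without replicate 2 of vehicle fl/fl, and 1 passed without replicate 1 or 4 of vehicle fl/fl.

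**Figure D3:**
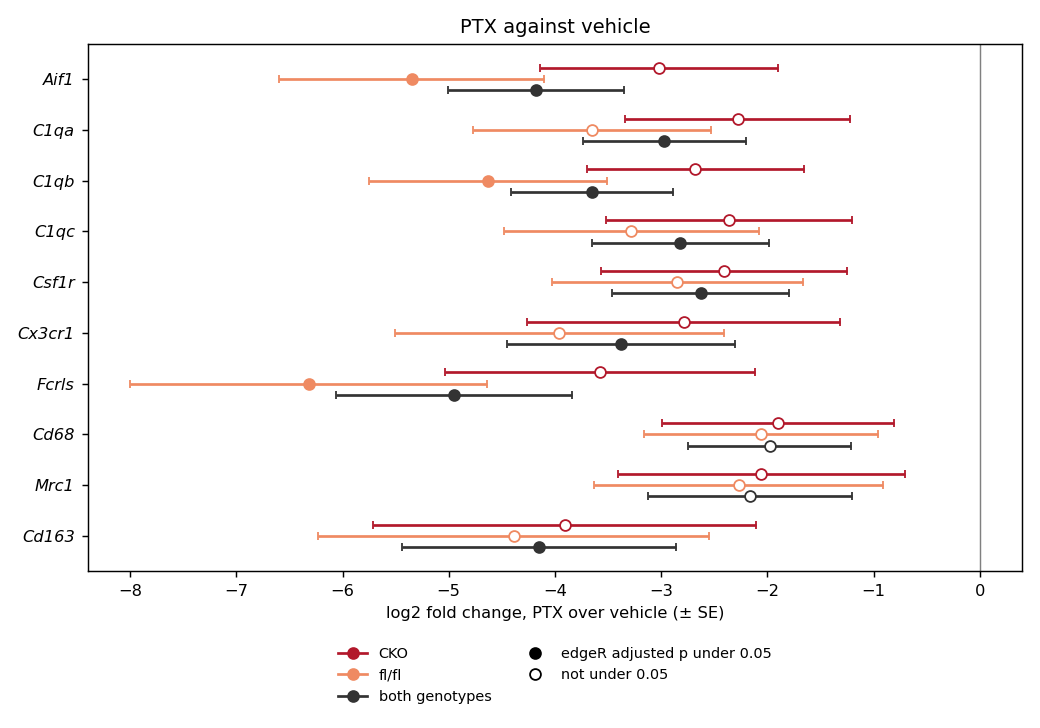
Log2 fold change of PTX over vehicle (± SE) for the 10 macrophage genes in CKO, in fl/fl and over both genotypes. Filled points have an edgeR adjusted p under 0.05. All 30 points lie below 0, with 0 of 10 filled in CKO, 3 of 10 in fl/fl and 8 of 10 over both genotypes.

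Within PTX, 4 of the 10 macrophage genes were higher on 9/25 than on 9/24, where 7.13 percent of all genes were: Cd68 (log2 fold change 4.27 ± 0.62, edgeR adjusted p = 0.000441), C1qc (3.72 ± 0.70, 0.00358), C1qa (3.37 ± 0.73, 0.00925) and Csf1r (3.45 ± 0.80, 0.0151). DESeq2 called 7 of the 10 and limma-voom 1, and 2 passed without replicate 1 of PTX fl/fl or replicate 2 of PTX CKO. The median over the 10 genes was 3.41, against -0.16 for all genes. All 4 libraries of 9/25 were above all 4 of 9/24 for these genes and for Mrc1 (9.75 percent of all genes), though Mrc1 did not pass the test (3.86 ± 1.16, edgeR adjusted p = 0.0598). Aif1 had the smallest difference, 0.85 ± 1.13 (edgeR adjusted p = 0.769). Summed over the 10 genes, the libraries of 9/25 had 203 to 477 CPM and those of 9/24 had 19.3 to 52.9 CPM.

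After vehicle no difference between the 2 dates was called for any of the 10 genes. The log2 fold change of 10/2 over 10/1 was between -1.34 (Cd163) and -0.04 (Cd68), none passed the edgeR test (0.162 percent of all genes passed), none had an unadjusted p under 0.05 (8.41 percent had), and neither DESeq2 nor limma-voom called any. The difference between the treatments in their date difference was tested as a comparison chosen after the values were seen. It passed for C1qc (4.90 ± 0.93, edgeR adjusted p = 0.00467), Cd68 (4.31 ± 0.79, 0.00366), Csf1r (4.37 ± 1.07, 0.023) and C1qa (4.0 ± 0.96, 0.0209), where 5.66 percent of all genes passed as higher. Without replicate 1 of PTX fl/fl, replicate 2 of PTX CKO or replicate 3 of vehicle CKO, 2 genes passed instead of 4.

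The overlap with vehicle libraries differed between the 2 PTX dates. All PTX libraries of 9/24 were below all 8 vehicle libraries for 7 of the 10 genes (Aif1, C1qa, C1qb, C1qc, Csf1r, Cx3cr1 and Cd68), as they were for 10.9 percent of all genes. Those of 9/25 were below all vehicle libraries for Aif1 and C1qb alone, as for 1.45 percent of all genes. Without the 4 libraries of 9/24, calls over both genotypes fell from 2378 to 224 among all genes, in either direction. No fit without 9/25 was run, so the date and the smaller number of libraries cannot be told apart. In the fit without 9/24, 1 of the 10 genes passed over both genotypes instead of 8. This was Aif1, at -4.07 ± 0.92 (edgeR adjusted p = 0.0465). C1qb was then at -2.98 ± 0.78 (0.079), Fcrls at -4.24 ± 1.35 (0.141), C1qa at -2.13 ± 0.59 (0.0933), C1qc at -1.95 ± 0.65 (0.159), Csf1r at -1.79 ± 0.72 (0.255), Cx3cr1 at -2.61 ± 1.03 (0.242) and Cd163 at -3.34 ± 1.42 (0.28). Cd68 and Mrc1 were at -1.09 ± 0.29 (0.0801) and -1.32 ± 0.90 (0.522). With all libraries kept and a separate later-against-earlier term within each treatment, all 10 passed over both genotypes, 5 in CKO and 7 in fl/fl. Such terms take up the spread between the 2 dates of a treatment and do not adjust the comparison with vehicle for date, since no date is shared. They also moved the fold changes, to -3.12 ± 0.43 for Cd68 and -3.06 ± 0.79 for Mrc1, against -1.98 and -2.16 without them.

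**Figure D4:**
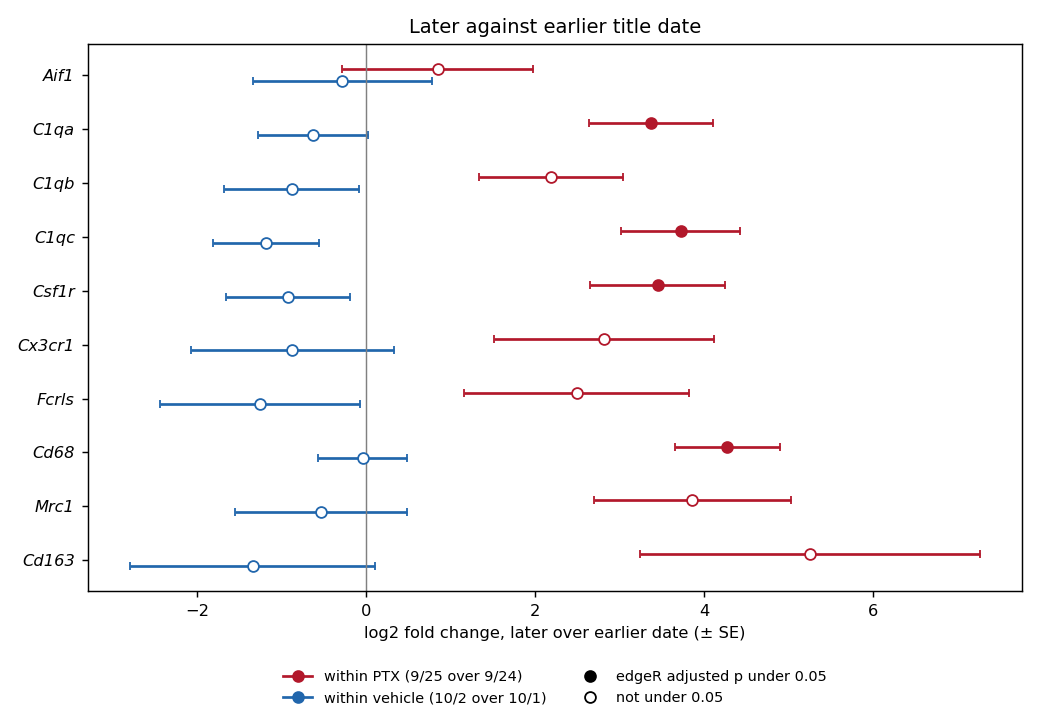
Log2 fold change of the later over the earlier title date (± SE) for the 10 macrophage genes, within PTX and within vehicle. Filled points have an edgeR adjusted p under 0.05. After PTX all 10 points lie above 0 and 4 are filled, whereas after vehicle all 10 lie below 0 and none is filled.

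The genotype label made no difference that passed a test. Under PTX the log2 fold change of CKO over fl/fl ran from 0.13 ± 1.30 for Mrc1 to 2.87 ± 1.46 for Fcrls and was positive for all 10 genes, but 8 of the 10 changed sign under at least 1 alternative, and only Fcrls and C1qb stayed positive in all that were run. Aif1 followed Fcrls with 1.90 ± 1.09. Every edgeR adjusted p was 1, none of the 10 genes had an unadjusted p under 0.05 (1.87 percent of all genes had), and no gene of the whole table passed (0 percent). Fcrls was at 1.97 to 35.6 CPM in PTX CKO and 0.203 to 4.7 CPM in PTX fl/fl libraries, with overlap. Under vehicle the log2 fold change ran from -0.93 ± 0.97 for C1qb to 0.30 ± 1.05 for Cd68, with no gene of the 10 past the test or at an unadjusted p under 0.05 (0.0211 percent of all genes passed and 4.61 percent had such a p). The difference between genotypes in the PTX effect was 0.16 ± 1.49 for Cd68 to 2.74 ± 1.93 for Fcrls, and none of the 10 passed or had an unadjusted p under 0.05 (0.00704 percent of all genes passed and 3.35 percent had such a p). DESeq2 and limma-voom called none of the 10 in these 3 comparisons either. The standard errors of 0.97 to 2.27 on the log2 scale leave room for differences of several fold in either direction.

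Levels were divided by exon length (GENCODE M21, GRCm38, which is not the build of the counts). The 3 C1q genes then had the highest medians of the 10 after vehicle and on each PTX title date. On 9/24 C1qb had 6.12 and Cd68 2.34 CPM per kb, and on 9/25 they had 34.1 and 32.6. Only in the median over both PTX dates, given next, did Cd68 stand above C1qb. After PTX the median level was 20 CPM per kb for C1qc, 18.3 for C1qa, 14.9 for Cd68, 9.48 for C1qb and 8.73 for Csf1r. Mrc1 followed with 2.17 CPM per kb, and Fcrls, Cx3cr1 and Aif1 with 0.934, 0.933 and 0.858. After vehicle it was 213 CPM per kb for C1qb, 154 for C1qa, 119 for C1qc, 74.2 for Cd68, 52.2 for Csf1r and 38.8 for Fcrls. Aif1 followed with 23.4 CPM per kb, Cx3cr1 with 13.4 and Mrc1 with 10.4. Cd163 was lowest in both, with 0.164 CPM per kb after PTX and 5.26 after vehicle. In both treatments the ranges of neighbours in this order overlapped.

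Lists of other macrophage genes, with none of the 10 among them, were examined in the same comparison over both genotypes, where 6.19 percent of all genes passed as lower and 10.6 percent as higher. Of 24 further genes of macrophages in general, 7 passed as lower and none as higher, with a median of -1.98. They included Maf, a transcription factor of resident macrophages (-1.92 ± 0.33, edgeR adjusted p = 0.00118), H2-Ab1, a class II antigen-presenting chain (-2.85 ± 0.72, 0.0154), and Ctss, the protease that trims the class II invariant chain (-3.04 ± 0.79, 0.0176). Of 11 genes of resident and perivascular macrophages 4 passed as lower and none as higher (median -3.09). Among them Ninj1, with a median of 70.6 CPM after PTX and 168 CPM after vehicle, was at -1.11 ± 0.23 (edgeR adjusted p = 0.00399). Cbr2, with a median of 0.258 CPM after PTX, was at -5.52 ± 1.23 (edgeR adjusted p = 0.00647). Of 9 microglia-type genes 3 passed as lower and none as higher (median -1.92). Among them Cst3, with a median of 816 CPM after PTX and 1548 CPM after vehicle, was at -0.90 ± 0.20 (edgeR adjusted p = 0.00653). P2ry13, a nucleotide receptor with a median of 0.099 CPM after PTX, was at -5.40 ± 1.39 (edgeR adjusted p = 0.0149). Of 12 genes of monocyte-derived cells 2 passed as lower and none as higher (median -1.97), S100a4 at -1.87 ± 0.30 (edgeR adjusted p = 0.000703) and Lyz1 at -3.11 ± 0.99 (0.0411). Among 13 genes of lipid-laden phagocytes 4 passed as lower, including Apoe at -1.16 ± 0.29 (edgeR adjusted p = 0.0118), which glia also express. The cathepsin gene Ctsb passed as higher at 0.77 ± 0.25 (edgeR adjusted p = 0.0419). Which cells carried the RNA of Cst3, Ninj1 and S100a4 was not tested.

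Of 18 tested genes of the complement system other than C1q, 2 passed as lower and 1 as higher (median -1.29). These counts and those for genes linked to Csf1r lay near the shares over all genes, 6.19 percent lower and 10.6 percent higher. The single calls are given as values only. Cr1l, a membrane inhibitor of complement in rodents, was at -1.09 ± 0.25 (edgeR adjusted p = 0.00707), and Cd55, the membrane inhibitor that speeds decay of the convertases, was at 1.82 ± 0.52 (0.0249). A list of 15 signalling and transcription factor genes linked to Csf1r had a median of -1.12. Of these, Sirpa passed as lower (-1.15 ± 0.37, edgeR adjusted p = 0.0421). The transcription factor gene Runx1 passed as higher (1.06 ± 0.35, edgeR adjusted p = 0.046). None of 6 tested genes of ligands passed the edgeR test, 0 had an unadjusted p under 0.05, and DESeq2 called 0 and limma-voom 3.

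Markers of other cell types are given against the same shares over all genes, 6.19 percent lower and 10.6 percent higher. Of Schwann cell genes 13 of 14 passed as lower after PTX (median -2.21), of satellite glia 9 of 14 (-1.20), of fibroblasts 9 of 12 (-3.09), and of endothelium 2 of 11 (-2.08), while 15 of 16 sensory neuron genes passed as higher (2.25). Of 19 neutrophil genes none passed the edgeR test (-1.49), 3 had an unadjusted p under 0.05, DESeq2 called 3 and limma-voom 18. Fibroblast markers held 0.0356 to 0.211 percent of gene counts after PTX and 0.17 to 1.09 percent after vehicle, and Schwann cell markers 0.247 to 0.498 percent after PTX and 0.661 to 1.32 percent after vehicle. Genes induced by tissue dissociation passed as lower in 8 of 10 cases (-1.54), with 0.113 to 0.652 percent of gene counts after PTX and 0.605 to 1.09 percent after vehicle.

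By title date the lists differed, with no clean split between macrophage and other lists. On 9/25 against 9/24 within PTX, 17 of the 24 further macrophage genes passed as higher (median 4.57), as did 19 of 19 neutrophil genes (5.38) and 8 of 10 dissociation genes (1.85), where 7.13 percent of all genes did. Schwann cell genes passed as higher in 1 of 14 cases (0.24), satellite glia in 0 of 14 (0.36; 2 at an unadjusted p under 0.05, 0 with DESeq2 and 0 with limma-voom) and microglia-type genes in 0 of 9 (0.23; 0 at an unadjusted p under 0.05, 1 with DESeq2 and 0 with limma-voom), and 5 of 16 sensory neuron genes passed as lower (-0.96), where 1.8 percent of all genes did. Monocyte-derived genes passed as higher in 5 of 12 cases (3.21), resident and perivascular macrophage genes in 1 of 11 (1.87) and fibroblast genes in 3 of 12 (0.98). Complement genes passed as higher in 6 of 18 cases and as lower in 2 (2.26). Lipid-laden phagocyte genes did so in 2 of 13 and 1 (0.16), and genes linked to Csf1r were higher in 7 of 15 (1.89). Neutrophil markers held 5.68 to 12.3 percent of gene counts on 9/25 and 0.0338 to 1.08 percent on 9/24, beside the sums of the 10 macrophage genes given above. The 24 further macrophage genes were not chosen to leave out genes that neutrophils share, so their rise cannot be assigned to macrophages alone. The part of neutrophils and of macrophages in the date difference was not tested.

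**Figure D5:**
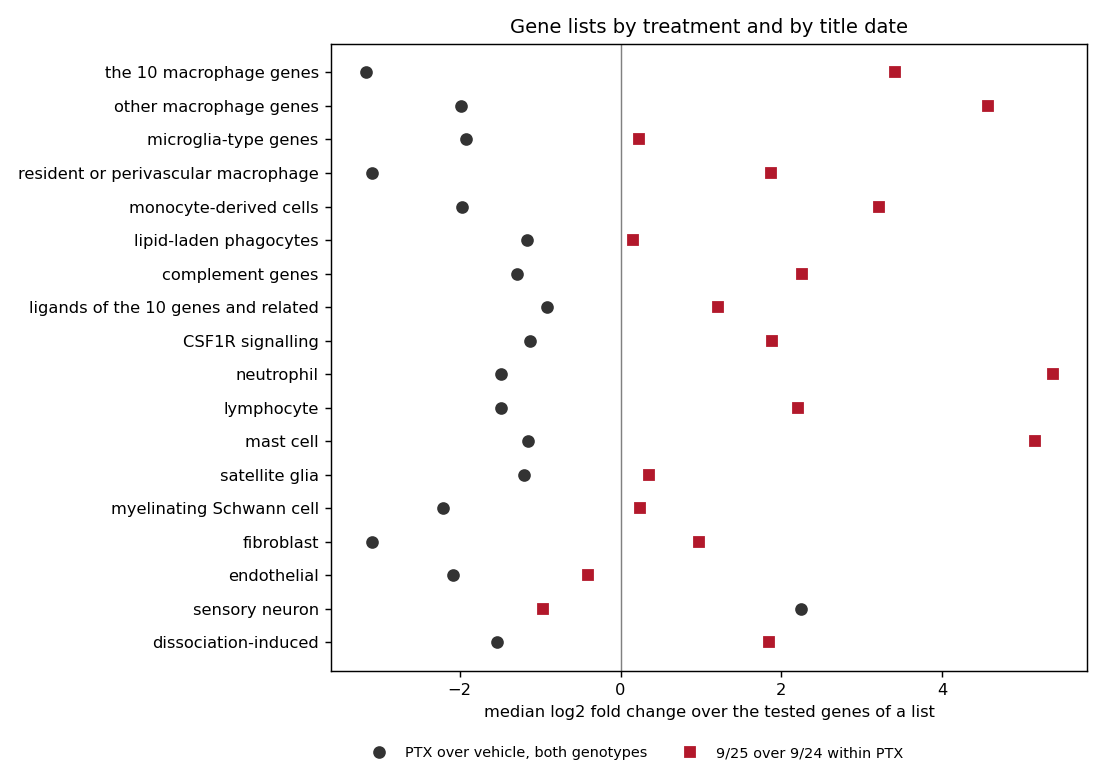
Median log2 fold change over the tested genes of each list, for PTX over vehicle in both genotypes (circles) and for 9/25 over 9/24 within PTX (squares). The 10 macrophage genes stand at -3.17 and 3.41, neutrophil genes at -1.49 and 5.38, and Schwann cell genes at -2.21 and 0.24.

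The genes whose log2 CPM was most like the mean of the 10 over the 16 libraries were Pf4, H2-Aa, H2-Ab1, P2ry6, Ctss, Ms4a7, Cd74, Col3a1, Cd36 and H2-Eb1, ranked by Pearson r as a description. The libraries form 2 treatments with separate levels, so no pooled value is given. After centring in the 8 combinations of genotype and date the first of them, Pf4, which encodes a chemokine of platelets and some macrophages, kept an r of 0.918, Cd36 0.910 and Ctss 0.777. Ranked by the centred r instead, the first genes were 4930503L19Rik (0.986), Dlg4 (0.949), Trfr2 (0.949), Fgfr1op (0.937) and Bclaf1 (0.936), all above Pf4 and none on a macrophage list. The mean of the sensory neuron list had a centred r of 0.75 with the 10 genes, and that of the further macrophage genes 0.92. The centred likeness was therefore not particular to macrophage genes. It described differences within pairs of libraries of the same genotype and date. Between treatments the 2 sets moved in opposite directions, with a median of 2.25 for sensory neuron genes and -3.17 for the 10 genes. In the same centred values each of the 10 genes was compared with the mean of the other 9. Csf1r and Mrc1 were closest with 0.91, Fcrls had 0.89, Cd163 0.88, C1qc 0.86 and C1qa 0.84. C1qb followed with 0.72, Cx3cr1 with 0.62, Aif1 with 0.55 and Cd68 with 0.43. These 16 values share libraries and depth and stand in pairs, so they describe these libraries only.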

How the data were processed

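The deposited values are whole-number counts of reads per gene, made by the authors. Per the labels' protocols, stranded libraries of poly(A) RNA were sequenced from 1 end for 50 bases. The tools bcl2fastq, TopHat2 and HTSeq and the build mm9 were used, per the submitters' processing notes, and the versions and strand setting are not given in the sources used here. The 5 summary lines of each table were left out of library sizes and tests. Genes held 32.88 to 43.48 percent of the alignments that HTSeq tallied, and 13.73 to 25.39 percent lay on no feature. No 2 libraries of a group agreed within counting noise (lowest chi-square per degree of freedom 19.5 over 24 pairs).

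In edgeR 4.0.16 under R 4.3.3, low counts were removed with filterByExpr, TMM factors were used, and 1 robust quasi-likelihood model of 4 group means held all 16 libraries (12 residual degrees of freedom). Title dates were compared in a model of 8 cells with 8 residual degrees of freedom. Tests were two-sided, adjusted by Benjamini-Hochberg over 14200 genes, with calls at 0.05. The biological coefficient of variation was 0.939 (common value). A standard error is the log2 fold change over the root of its F statistic. Columns of other series numbered 0. The analysis was tested on simulated data.

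The 10 genes, the gene lists, the comparisons and the alternatives were chosen with earlier results of these data known, and the comparison of date differences was added after these values were seen. Named list genes are up to 4 per list with the smallest adjusted p, of which part is given. Alternatives were scaling by RLE or upper quartile, leaving out the filter, requiring 5 CPM in 4 libraries, DESeq2 1.42.0, limma-voom 3.58.1 with quality weights, a replicate block, a term for the later against the earlier title date within each treatment, the compared groups alone, the fit without 9/24, and leaving out each library. Same-numbered libraries were checked for pairing by the correlation of their deviations from group means. It was 0.43, 0.48, 0.47 and 0.23 between PTX CKO and PTX fl/fl, whose numbers share title dates, and between -0.20 and 0.11 elsewhere. The values of 1 further gene of the complement list are not reported here.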

Additional observations from a re-analysis of the deposited data

Results flagged for a closer look

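In 6 of 40 sets of 4 libraries (10 genes in 4 groups), the CPM of the highest or lowest library lay beyond Dixon's 95 percent limit. That limit is meant for normally distributed values. Here levels were not on a log scale, and each set mixed earlier and later title dates. Sets of different genes shared libraries, and replicate 1 of vehicle CKO gave 3 of the 6. The 6 are therefore listed as a description, without a chance rate. Replicate 1 of vehicle CKO was the high library for C1qc (434 CPM), Csf1r (943 CPM) and Fcrls (471 CPM). Replicate 4 of PTX fl/fl was low for Aif1 (0.102 CPM). Fcrls was high in replicate 4 of PTX CKO (35.6 CPM) and in replicate 3 of PTX fl/fl (4.7 CPM).

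The difference between the later and the earlier title date was larger after PTX than after vehicle by 4.90 on the log2 scale for C1qc, 4.37 for Csf1r, 4.31 for Cd68 and 4.0 for C1qa, each with an edgeR adjusted p under 0.05 for the difference itself.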

How the results depend on the processing

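The log2 fold changes of all 10 genes stayed negative in the 3 PTX comparisons under every alternative run. Counts of the 10 genes past the threshold were 0 in CKO, 3 in fl/fl and 8 over both genotypes. DESeq2 gave 3 in CKO, 8 in fl/fl and 10 over both. Limma-voom gave 4, 10 and 10, with the median of all genes shifted to 0.29, 0.24 and 0.28. A later-against-earlier date term within each treatment gave 5, 7 and 10. Without 9/24 the counts were 0, 0 and 1. The replicate block gave 0 in CKO, 0 in fl/fl and 6 over both, and since same-numbered PTX and vehicle libraries are not paired, this loss is not read as a weaker effect. It changed no call between genotypes. Leaving out 1 library gave 0 in CKO, 0 to 3 in fl/fl and 4 to 8 over both (4 without replicate 1 or 2 of PTX fl/fl, replicate 1, 2 or 4 of vehicle fl/fl, or replicate 1 of vehicle CKO). For 9/25 over 9/24 within PTX the count of 4 became 7 with DESeq2 and 1 with limma-voom, and 2 to 5 without 1 library. For the difference of date differences it became 7 with DESeq2, 2 with limma-voom and 2 with no filter, and 2 to 5 without 1 library. No alternative called any of the 10 between genotypes, in the interaction or between vehicle dates. For CKO over fl/fl under PTX, where none passed, 8 of the 10 changed sign under some alternative. The lowest values were -2.68 for Cd163, -1.75 for Mrc1, -1.21 for Cd68, -0.70 for Aif1 (limma-voom), -0.40 for C1qc, -0.35 for Cx3cr1, -0.30 for C1qa and -0.24 for Csf1r. Signs also changed for 6 genes in CKO over fl/fl under vehicle, for 6 in the interaction and for 7 between vehicle dates. Without 1 library the date difference within PTX ran from -0.18 to 3.77 for Aif1 and from -1.96 to 5.04 for Cx3cr1. The cause was not tested. Over all genes the calls in CKO were 366, against 1331 with DESeq2, 2686 with limma-voom, 126 with the block, 1798 with the date term, 0 without 9/24 and 159 with the compared groups alone. In fl/fl they were 704, against 1517 with DESeq2, 5283 with limma-voom, 361 with the block, 1500 with the date term and 4 without 9/24. Over both they were 2378, against 6461 with limma-voom, 3901 with the date term and 224 without 9/24. All 10 genes passed the low-count filter, so the permutation test planned for genes outside it and its pseudocounts gave no value. The compared groups alone were not run over both genotypes, where all groups are compared. Summed counts of the 10 genes were 245 to 375 in the CKO libraries of 9/24 and 232 to 602 in the fl/fl ones. In these libraries Aif1 had 0 to 15 counts, Cd163 0 to 13, Cx3cr1 1 to 47, Cd68 1 to 40 and Mrc1 2 to 60. Single counts could thus move the lowest of these levels.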
